A study of Mus musculus with 8 samples.

Results

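The transcripts of apelin, its receptor and 8 further genes of angiogenic endothelium were examined in the heart ventricles of male C57BL/6 mice, with and without a tumor. The 10 genes (Apln, Aplnr, Esm1, Dll4, Angpt2, Vash1, Unc5b, Plvap, Prnd and Pgf) were taken by gene name from the 43346 genes of the deposited count table, and all 10 had enough counts to pass edgeR's default filter, as did 16111 genes in all. They were picked with results of the same mice known, so the difference of each between the groups is given as a description, with its error and no test. Ventricular mRNA was sequenced from 4 mice that received 1000000 LLC1 cells, a line of Lewis lung carcinoma, and from 4 mice that received PBS vehicle. All 8 were injected at 7 weeks of age, no genetic change is named for them, the injections were subcutaneous, and the ventricles were taken 14 days later. The tumor-bearing group is thus 1 transplanted cell line in 1 sex at 1 time point. The labels name each mouse by group and a replicate code (LLC1 1-2, 1-3, 1-5 and 2-2, and PBS 1-1, 1-3, 2-1 and 2-5), and the values of single mice below follow that order.

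Apelin is a secreted peptide that is made in the heart mainly by endothelial cells, and its receptor Aplnr is a G protein-coupled receptor found on endothelium and on heart muscle. Apelin signaling widens vessels, raises the force of contraction and guides the growth and caliber of new vessels. A growing vessel is led by tip cells, whose number and movement are set by VEGF receptors, Notch signaling and guidance receptors, and the other 8 genes are best known from such cells or from vessels that are being remodeled.

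Between 12480706 and 19747596 counts fell on genes in each library, so that a level of 1 CPM (counts per 1000000 counts, after TMM normalization) stands for 12 to 20 counts. Over all genes tested, 743 (4.61%) were lower in tumor-bearing mice and 663 (4.12%) were higher, or 1406 in either direction (8.73%), by edgeR's quasi-likelihood test with Benjamini-Hochberg adjustment and a threshold of 0.05 on the FDR. The higher genes made up 47.2% of these calls, and 22.1% when libraries were scaled to their total counts alone. Leaving out 1 mouse moved these counts by over 1.5 times, to 542 without PBS 1-3 (330 lower and 212 higher), 634 without LLC1 1-3, 712 without LLC1 1-5, 751 without LLC1 1-2 and 832 without LLC1 2-2, and the count of higher genes alone to 365 without PBS 2-1. PBS 1-1 stood apart from the other PBS-injected mice on the second principal component (25.2% of the variance), and its level of Ttn, the giant spring protein of the sarcomere, was 18482 CPM against 7893 to 9030 CPM in the other 7 mice. The 5 cardiomyocyte markers summed to between 79938 and 94811 CPM in every library, and the 4 adipocyte markers to 1.04 CPM or less.

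In 7 of the 10 genes every tumor-bearing mouse was lower than every PBS-injected mouse. These were Apln, Aplnr, Dll4, Angpt2, Vash1, Unc5b and Prnd. The groups overlapped for Esm1, Plvap and Pgf, and no gene of the 10 was higher in every tumor-bearing mouse. Groups without overlap were found for 2766 of all genes tested (17.2%), with tumor-bearing mice lower for 8.27% and higher for 8.89%. As the 10 genes were chosen on this contrast, nothing was read from the count. The median log2 fold change of tumor-bearing over PBS-injected mice was -0.58 for the 10 genes and -0.01 for all genes tested. The values of each mouse are shown in the plot of CPM by gene.

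**Figure D1:**
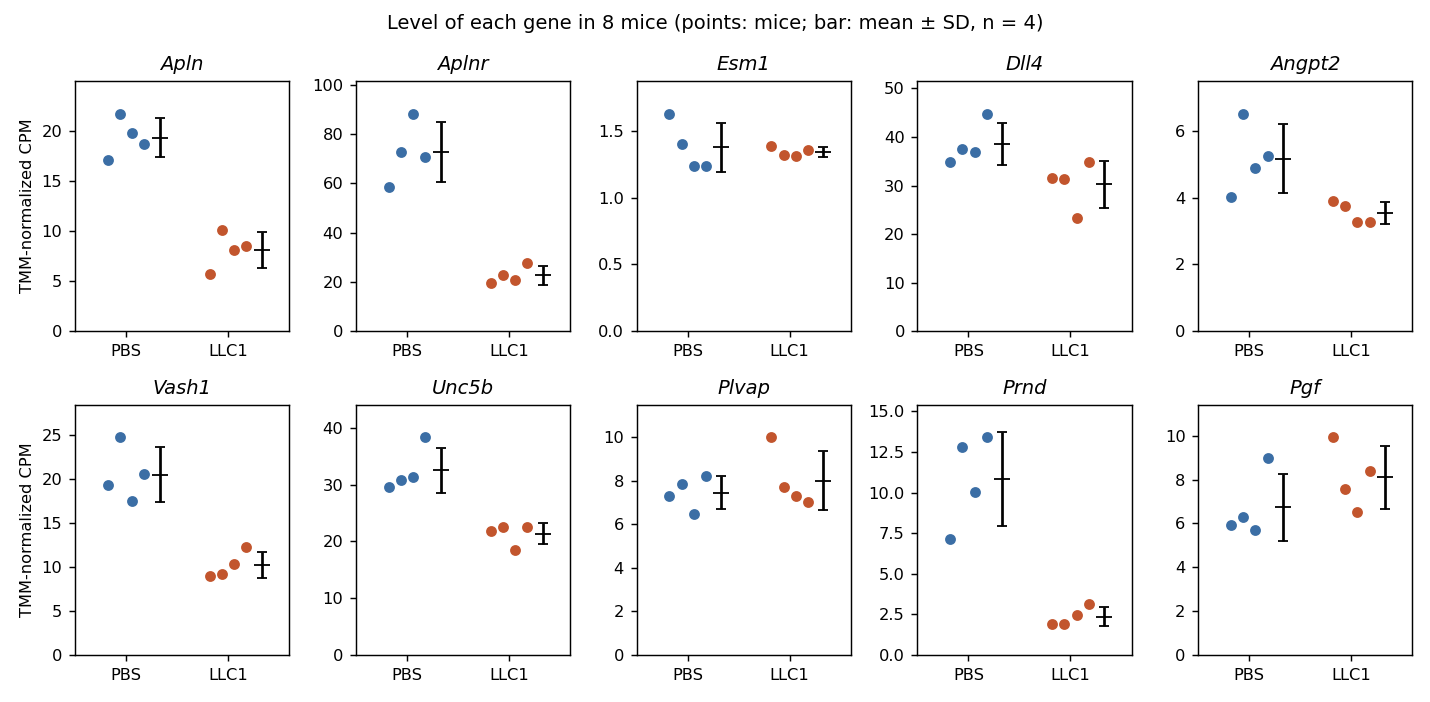
TMM-normalized CPM of each of the 10 genes (vertical axis, from 0, a scale of its own for each gene) in the 4 PBS-injected mice (blue) and the 4 tumor-bearing mice (orange). Points are single mice and the black bars are the mean ± SD; the points of the groups are apart for 7 genes and overlap for Esm1, Plvap and Pgf.

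Apln (ENSMUSG00000037010), the gene of the apelin peptide, lies on the minus strand of chromosome X, from 48025146 to 48034853 in mm10. Its level was 5.69, 10.1, 8.10 and 8.55 CPM in the tumor-bearing mice and 17.1, 21.7, 19.8 and 18.7 CPM in the PBS-injected mice. The highest tumor-bearing mouse was well below the lowest PBS-injected mouse. The means were 8.10 ± 1.82 and 19.3 ± 1.95 CPM (SD, n = 4 each), a log2 fold change of -1.25 ± 0.14 (standard error) or 0.420-fold.

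Aplnr (ENSMUSG00000044338), the receptor, lies on the plus strand of chromosome 2, from 85136225 to 85139923. It was at 19.4, 22.7, 20.6 and 27.8 CPM in tumor-bearing mice compared to 58.5, 72.8, 88.2 and 70.5 CPM in PBS-injected mice. The groups were far apart, with no tumor-bearing mouse near the lowest PBS-injected mouse. The means of 22.6 ± 3.72 and 72.5 ± 12.2 CPM (SD, n = 4 each) gave a log2 fold change of -1.68 ± 0.13, or 0.312-fold. Receptor and ligand were therefore both low in the same mice. The level of Aplnr per kb of transcript was 2.44 ± 0.473 times that of Apln in tumor-bearing mice (SD, n = 4) and 3.19 ± 0.431 times in PBS-injected mice (SD, n = 4). The mice ranged from 1.91 to 2.90 and from 2.85 to 3.80, so that these ratios overlapped.

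The other ligand known for Aplnr, Apela, had 1 count or none in any mouse and was not tested (its gene ID is named Trim61 in the deposited table). Of 10 genes for partners of the axis (among them Apela, proteases, the G proteins and arrestins that Aplnr couples to, and downstream genes), 9 were tested, 1 fell and 1 rose. Furin, a protease of the secretory pathway that cleaves proapelin, was higher in tumor-bearing mice (130 ± 10.5 against 99.5 ± 7.59 CPM, SD, n = 4, log2 fold change 0.39 ± 0.08, FDR = 0.0120 in edgeR's quasi-likelihood test). Gnai3, a subunit of the inhibitory G proteins, was lower (24.3 ± 2.16 against 30.6 ± 2.71 CPM, SD, n = 4, log2 fold change -0.33 ± 0.09, edgeR FDR = 0.0403). With libraries scaled to total counts the FDR of Furin was 0.0644. Mme, the peptidase neprilysin, had a log2 fold change of 0.03 ± 0.13 and the endothelial nitric oxide synthase Nos3 of -0.24 ± 0.10, neither of which passed the test.

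The 250 bases before the RefSeq start of the gene were read for 7 of the 10 genes from RefSeq promoters on GRCm38.p6, the assembly that mm10 names. Aplnr, Angpt2 and Plvap had no entry. Of these, 5 are shown here, those of the 3 genes with the lowest fold that had an entry (Prnd, Apln and Vash1) and of the 2 genes whose groups overlapped (Esm1 and Pgf). Each is given 5′ to 3′ on the strand of the gene. The RefSeq start is that of the deposited table for the first 4 of the windows below, while for Pgf it lies upstream, at -17 bases from it, and motif positions count from the RefSeq start. Apln is chrX:48034854-48035103 on the minus strand, Vash1 is chr12:86678450-86678699 on the plus strand, Prnd is chr2:131950611-131950860 on the plus strand, Esm1 is chr13:113209409-113209658 on the plus strand and Pgf is chr12:85177314-85177563 on the minus strand. Capitals mark any match to 6 short motifs, searched on both strands.
Apln: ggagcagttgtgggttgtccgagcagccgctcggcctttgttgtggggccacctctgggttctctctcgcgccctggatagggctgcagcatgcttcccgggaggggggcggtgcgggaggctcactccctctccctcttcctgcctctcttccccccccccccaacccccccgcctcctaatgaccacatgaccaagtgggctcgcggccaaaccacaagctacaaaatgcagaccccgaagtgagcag
Vash1: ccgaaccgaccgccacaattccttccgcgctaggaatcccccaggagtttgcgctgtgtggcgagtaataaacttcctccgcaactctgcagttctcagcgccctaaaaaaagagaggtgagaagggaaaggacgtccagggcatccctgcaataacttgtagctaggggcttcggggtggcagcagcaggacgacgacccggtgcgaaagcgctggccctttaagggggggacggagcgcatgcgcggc
Prnd: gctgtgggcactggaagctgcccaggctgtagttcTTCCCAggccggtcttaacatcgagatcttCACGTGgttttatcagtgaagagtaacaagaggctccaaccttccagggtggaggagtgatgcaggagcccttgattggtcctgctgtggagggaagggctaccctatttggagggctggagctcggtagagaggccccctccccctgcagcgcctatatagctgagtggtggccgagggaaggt
Esm1: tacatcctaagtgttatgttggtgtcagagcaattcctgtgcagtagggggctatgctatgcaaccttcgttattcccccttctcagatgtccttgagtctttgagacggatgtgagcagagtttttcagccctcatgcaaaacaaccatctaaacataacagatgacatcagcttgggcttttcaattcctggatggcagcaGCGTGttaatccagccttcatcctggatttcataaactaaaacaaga
Pgf: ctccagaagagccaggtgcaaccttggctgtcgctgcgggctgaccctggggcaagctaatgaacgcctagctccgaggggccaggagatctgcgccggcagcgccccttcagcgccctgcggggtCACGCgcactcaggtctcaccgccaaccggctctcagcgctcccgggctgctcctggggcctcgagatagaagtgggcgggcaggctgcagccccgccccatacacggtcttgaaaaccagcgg

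The motifs were ACGTG and GCGTG, cores bound by hypoxia-inducible factors, TGGGAA, bound by RBPJ of the Notch pathway, CCGGAA, bound by ETS factors, AGATAA, bound by GATA factors, and TGTTTAC, bound by forkhead factors. None of the 6 was found in the windows of Apln and Vash1. Prnd held ACGTG on both strands, as an overlapping pair that spells CACGTG 185 bases before the start, and TGGGAA on the other strand at 215 bases. Esm1 and Pgf held GCGTG at 47 and 124 bases, and so did Dll4 and Unc5b. ACGTG was thus found in 1 of the 7 genes and GCGTG in 4, where 16.6% and 28.2% of the 32851 RefSeq promoters of the same length held them. A gene was counted if any of its starts held the motif, and Prnd and Pgf each had a second start, while the shares are per promoter. The windows with GCGTG were 65.6% (Dll4), 66.8% (Unc5b), 68.4% (Pgf) and 44% (Esm1) G or C, against a median of 52.4% over all promoters. No excess was read from these counts. CCGGAA was found in 2 of the 7 genes, Unc5b and a second start of Prnd, against 12% of all promoters, and TGGGAA in 1 against 21.6%. AGATAA (9.99% of all promoters) and TGTTTAC (3.17%) were found in 0 of the 7. A match here is only a run of letters.

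Dll4 (ENSMUSG00000027314, chromosome 2, 119325784 to 119335962, plus strand) is the Notch ligand by which a tip cell keeps its neighbors from becoming tip cells. Its level was 31.6, 31.3, 23.4 and 34.8 CPM in tumor-bearing mice and 34.9, 37.5, 36.9 and 44.8 CPM in PBS-injected mice. The groups only just failed to overlap, at 34.8 in LLC1 2-2 and 34.9 in PBS 1-1. The means were 30.3 ± 4.86 and 38.5 ± 4.32 CPM (SD, n = 4 each), a log2 fold change of -0.35 ± 0.12. An antisense transcript, Gm14207, overlaps 5.56% of the exon bases of Dll4 in GENCODE M21. The library kit does not mark strand, so reads from the overlap cannot be assigned to either.

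Unc5b (ENSMUSG00000020099, chromosome 10, 60762610 to 60831581, minus strand) is a netrin receptor that restrains tip cells. It was at 21.9, 22.5, 18.5 and 22.5 CPM in tumor-bearing mice and at 29.5, 30.8, 31.3 and 38.3 CPM in PBS-injected mice. The SD within either group was less than the gap between the closest mice of the groups. Its means of 21.4 ± 1.90 and 32.5 ± 3.96 CPM (SD, n = 4 each) gave a log2 fold change of -0.61 ± 0.10. Ntn1, the gene of netrin-1, its secreted ligand, rose in tumor-bearing mice (115 ± 6.27 against 84.8 ± 4.63 CPM, SD, n = 4, log2 fold change 0.44 ± 0.07, edgeR FDR = 0.00317). Ligand and receptor thus differed in opposite directions. Ntn1 was the 1 gene that passed among 7 tested of 10 relatives and binding partners of the 10 genes. The others included Ntn4, another netrin, with a log2 fold change of -0.44 ± 0.15, Svbp, which binds vasohibins, with -0.01 ± 0.11, and Prnp, the prion protein, with 0.14 ± 0.06.

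Angpt2 (ENSMUSG00000031465, chromosome 8, 18690263 to 18741562, minus strand) encodes a secreted ligand of the receptor Tek that loosens vessels for remodeling. Its level was low, at 3.90, 3.75, 3.28 and 3.27 CPM in tumor-bearing mice and 4.03, 6.52, 4.88 and 5.25 CPM in PBS-injected mice. As for Dll4, PBS 1-1 lay close to the tumor-bearing mice. The means were 3.55 ± 0.324 and 5.17 ± 1.03 CPM (SD, n = 4 each), a log2 fold change of -0.55 ± 0.16.

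Vash1 (ENSMUSG00000021256, chromosome 12, 86678700 to 86692091, plus strand) encodes vasohibin-1, an endothelial inhibitor of vessel growth that also removes the last tyrosine of tubulin. It was at 9.0, 9.22, 10.4 and 12.3 CPM in tumor-bearing mice and at 19.3, 24.7, 17.5 and 20.5 CPM in PBS-injected mice. Each tumor-bearing mouse was again below each PBS-injected mouse. The means of 10.2 ± 1.5 and 20.5 ± 3.09 CPM (SD, n = 4 each) gave a log2 fold change of -1.0 ± 0.13, or 0.501-fold. An inhibitor of vessel growth thus had the same direction as Apln and Angpt2.

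Esm1 (ENSMUSG00000042379, chromosome 13, 113209659 to 113218098, plus strand), whose secreted proteoglycan marks tip cells, did not share this pattern. It was at 1.39, 1.32, 1.31 and 1.36 CPM in tumor-bearing mice and at 1.63, 1.40, 1.24 and 1.24 CPM in PBS-injected mice. The groups overlapped, with a log2 fold change of -0.02 ± 0.20. These levels rest on 19 to 27 counts in a library, and the error would hide a difference of that size.

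Pgf (ENSMUSG00000004791, chromosome 12, 85166639 to 85177296, minus strand) encodes placental growth factor, a ligand of the VEGF receptor Flt1. Its level was 9.92, 7.57, 6.51 and 8.40 CPM in tumor-bearing mice and 5.92, 6.31, 5.71 and 8.97 CPM in PBS-injected mice. PBS 2-5 was above 3 of the 4 tumor-bearing mice. The means were 8.10 ± 1.44 and 6.73 ± 1.52 CPM (SD, n = 4 each), a log2 fold change of 0.26 ± 0.17.

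Plvap (ENSMUSG00000034845, chromosome 8, 71497754 to 71511769, minus strand) encodes the protein of the diaphragms that close endothelial fenestrae and caveolae. It was at 9.99, 7.70, 7.28 and 7.04 CPM in tumor-bearing mice and at 7.29, 7.85, 6.47 and 8.20 CPM in PBS-injected mice. LLC1 1-2 was the highest of the 8, and the other 3 tumor-bearing mice lay within the range of the PBS-injected mice. The log2 fold change was 0.10 ± 0.14.

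Prnd (ENSMUSG00000027338, chromosome 2, 131950861 to 131956130, plus strand) encodes doppel, a relative of the prion protein that is found on brain endothelium in development and on tumor vessels. With reads assigned as deposited, its difference was the largest of the 10 genes. Its level was 1.92, 1.91, 2.46 and 3.12 CPM in tumor-bearing mice and 7.12, 12.8, 10.0 and 13.4 CPM in PBS-injected mice. The highest tumor-bearing mouse was under the lowest PBS-injected mouse, which was again PBS 1-1. The means were 2.35 ± 0.573 and 10.8 ± 2.89 CPM (SD, n = 4 each), a log2 fold change of -2.19 ± 0.22 or 0.219-fold.

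Of the exon bases of Prnd, 97.2% also belong to Gm28045 on the same strand, a readthrough locus that joins it to the prion protein gene upstream and is named Prn in GENCODE M21. How reads in the shared exons were assigned is not given in the sources used here. Gm28045 itself was at 18 ± 1.03 CPM in tumor-bearing mice and 23.1 ± 4.78 CPM in PBS-injected mice (SD, n = 4 each), a log2 fold change of -0.36 ± 0.13, and PBS 1-1 had the lowest level of the 8 mice at 16.0 CPM. With the counts of both genes added, the means were 20.4 ± 1.57 and 33.9 ± 7.5 CPM (SD, n = 4 each). The log2 fold change was then -0.74 ± 0.14 in place of -2.19. As both genes were lower on average, the sum had to be lower, and nothing was read from its direction. As Gm28045 reaches upstream, its counts may include reads from outside Prnd, so the sum need not be Prnd under another assignment. How far the size of the Prnd difference depends on the assignment was not tested. The sum differed less than Aplnr, Apln and Vash1 did, so the place of Prnd as the largest difference holds only for reads as deposited. Both genes are shown for each mouse in the plot of Prnd and Gm28045.

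**Figure D2:**
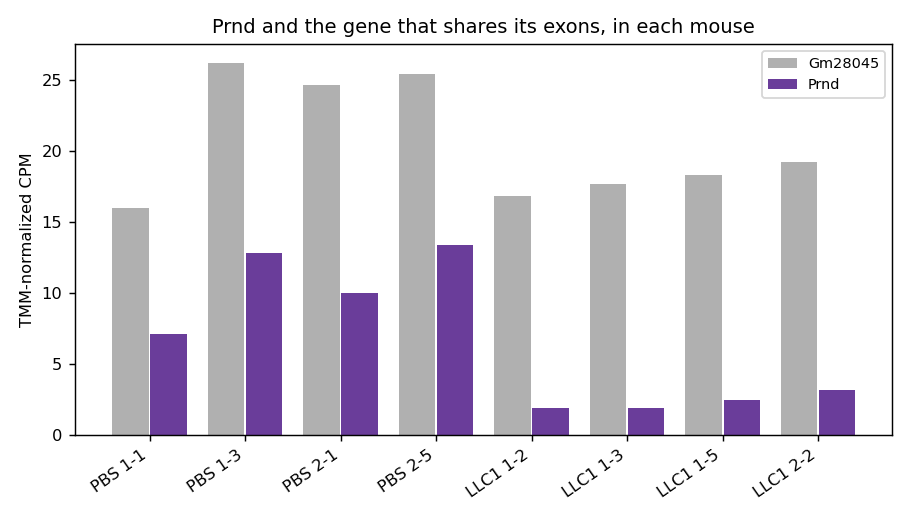
TMM-normalized CPM (vertical axis, from 0) of Prnd (purple bars) and of Gm28045, which shares its exons (grey bars), in each of the 8 mice. The purple bars are between 1.91 and 3.12 CPM in the 4 tumor-bearing mice and between 7.12 and 13.4 CPM in the 4 PBS-injected mice, while the grey bars of the groups overlap through PBS 1-1.

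Divided by the transcript length in the deposited table, the levels of the 10 genes in PBS-injected mice spread from 19.6 ± 3.30 CPM per kb for Aplnr to 0.657 ± 0.0886 CPM per kb for Esm1 (SD, n = 4). Aplnr was above all the others in every PBS-injected mouse. Dll4 (10.0 ± 1.12), Vash1 (7.89 ± 1.19), Apln (6.14 ± 0.620), Unc5b (5.55 ± 0.676), Pgf (4.25 ± 0.959), Plvap (3.70 ± 0.375) and Prnd (3.38 ± 0.900 CPM per kb) followed, and each of these overlapped its neighbor in the order. Angpt2 (1.40 ± 0.280 CPM per kb) and Esm1 stood below them without overlap. In tumor-bearing mice Dll4 came first with 7.85 ± 1.26 CPM per kb, then Aplnr with 6.12 ± 1.01 and Pgf with 5.12 ± 0.910, and Apln came behind all but Angpt2, Prnd and Esm1 with 2.57 ± 0.577 CPM per kb (SD, n = 4). Neighbors in this order overlapped except Apln and Angpt2. The place of Pgf rests on its length, which is 1582 bases in the deposited table and 2903 exon bases in GENCODE M21. With the latter, an alternative chosen after seeing the data, it was at 2.79 CPM per kb in tumor-bearing mice, below Plvap, Vash1 and Unc5b, and at 2.32 CPM per kb in PBS-injected mice, below Plvap and Prnd. The level and place of Prnd rest on how reads in the exons it shares with Gm28045 were assigned, which is not given. The orders in PBS-injected and tumor-bearing mice are shown in the plot of levels per length.

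**Figure D3:**
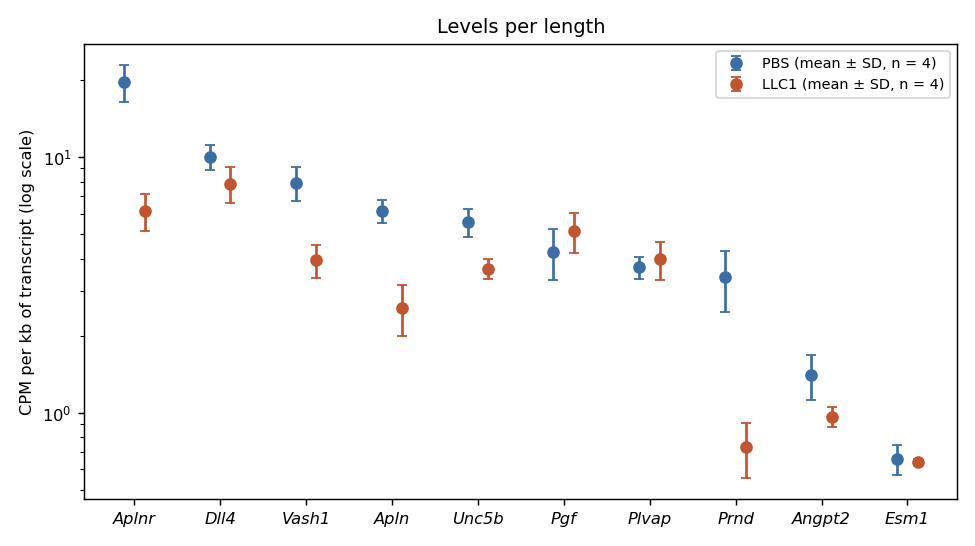
Mean level of each of the 10 genes in CPM per kb of transcript (vertical axis, log scale) in PBS-injected mice (blue) and tumor-bearing mice (orange), with SD over 4 mice, ordered by the level in PBS-injected mice. Aplnr is highest in PBS-injected mice at 19.6 CPM per kb and second after Dll4 in tumor-bearing mice at 6.12 CPM per kb.

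Whether the endothelium as a whole moved was examined with 15 pan-endothelial genes. Of these, 4 fell and 0 rose, beside the 4.61% and 4.12% of all genes tested. The median log2 fold change of the 15 was -0.24. Cldn5, a tight junction protein, was at 18.2 ± 3.41 against 31.4 ± 6.62 CPM (SD, n = 4, log2 fold change -0.79 ± 0.16, edgeR FDR = 0.0121), and Cd34, a surface sialomucin of capillaries, at 108 ± 5.06 against 180 ± 26.5 CPM (SD, n = 4, log2 fold change -0.74 ± 0.10, edgeR FDR = 0.00150). The other 2 were Emcn (log2 fold change -0.31 ± 0.07, edgeR FDR = 0.0205) and Mmrn2 (-0.34 ± 0.09, edgeR FDR = 0.0395, and 0.0608 with total count scaling). Pecam1 and Cdh5, the usual junction markers, had log2 fold changes of -0.19 ± 0.08 and -0.39 ± 0.13, which did not pass (edgeR FDR = 0.168 and 0.0800). Log2 fold changes were below 0 for 13 of the 15 and above 0 for Vwf (0.20 ± 0.16) and Clec14a (0.02 ± 0.10). The 15 genes summed to between 1057 and 1205 CPM in tumor-bearing mice and between 1161 and 1553 CPM in PBS-injected mice. In bulk ventricle, fewer endothelial cells and less RNA per endothelial cell cannot be told apart.

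The 10 genes were therefore also expressed relative to the mean log2 CPM of these 15. Apln, Aplnr, Vash1, Unc5b and Prnd were again lower in every tumor-bearing mouse, with log2 differences of -1.01, -1.42, -0.75, -0.35 and -1.88. On this scale the median difference of all genes tested was 0.25, and 1.63% of them were lower in every tumor-bearing mouse and 28.2% higher. Dll4 and Angpt2, whose groups did not overlap on the CPM scale, overlapped on this one, with differences of -0.11 and -0.26. Pgf, like that 28.2% of all genes, was higher in every tumor-bearing mouse on this scale, with a difference of 0.52, while Esm1 (0.23) and Plvap (0.34) still overlapped. The plot of differences shows both scales for each gene.

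**Figure D4:**
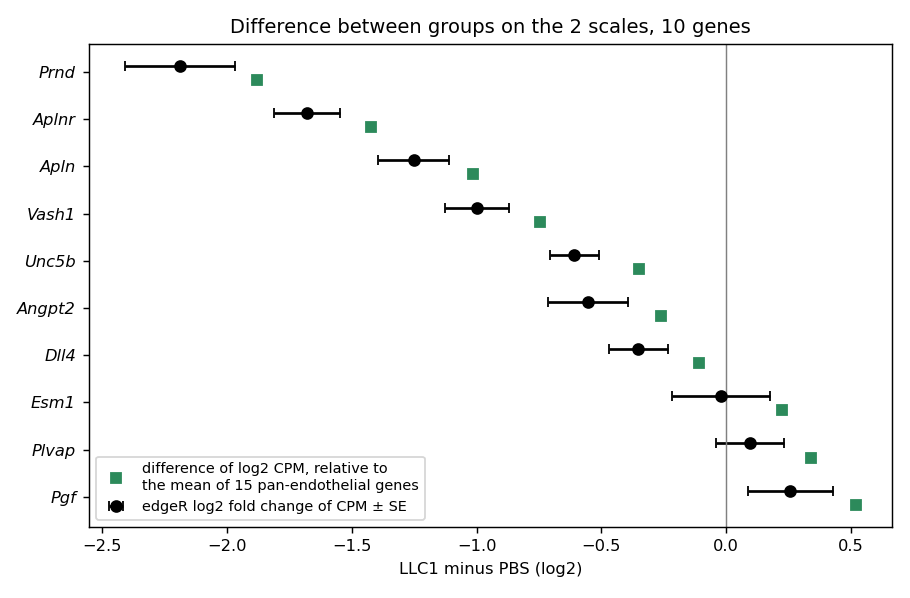
Difference between tumor-bearing and PBS-injected mice (horizontal axis, log2, below 0 where tumor-bearing mice were lower) for the 10 genes. Black points are edgeR log2 fold changes of CPM with their standard errors (4 mice per group) and green squares are differences relative to the mean of 15 pan-endothelial genes, which lie to the right of the black points for every gene.

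Markers of other cell types also differed, and their part in the differences above was not tested. Of 10 genes of dividing cells, 6 were tested and 5 fell. Mki67, the antigen of cycling nuclei, was at 1.83 CPM in tumor-bearing mice and 14.4 CPM in PBS-injected mice on average (log2 fold change -2.96 ± 0.40, edgeR FDR = 0.00177), and Top2a, a DNA topoisomerase, at 0.816 and 8.38 CPM (log2 fold change -3.33 ± 0.43, edgeR FDR = 0.00139). Of the 5, Ccna2 fell least (log2 fold change -0.69 ± 0.17). The 10 genes of dividing cells summed to between 24.7 and 38.6 CPM in tumor-bearing mice and between 38.2 and 92.4 CPM in PBS-injected mice. The most abundant of them was Cenpf, at 21.5 and 26.6 CPM on average, which did not pass (log2 fold change -0.31 ± 0.22). Among 5 fibroblast markers Col1a1 and Col3a1 fell, while Dcn, Pdgfra and Tcf21 did not pass (log2 fold changes 0.07, -0.07 and -0.21). The fibroblast sums were 802 to 880 against 869 to 1248 CPM, with mean Col3a1 at 229 against 451 CPM and Dcn at 436 against 416 CPM. Of 5 macrophage markers Mrc1 fell (sums of 126 to 152 against 126 to 196 CPM). Of 5 cardiomyocyte markers Myh6, the most abundant, rose, while Tnnt2, Actc1, Ttn and Myl2 did not pass (0.22, -0.05, -0.36 and 0.13). The cardiomyocyte sums were 88442 to 94811 against 79938 to 90872 CPM, the last in PBS 1-1, whose Ttn was high. None of the markers of pericytes (5), smooth muscle (4), lymphatic endothelium (4) or erythroid cells (4) passed edgeR's test, with 2, 1, 0 and 0 of them at an unadjusted p under 0.05. DESeq2 and the likelihood ratio test each called 1 smooth muscle marker, limma-voom called 0, and all 3 called 0 in the other lists. The pericyte markers summed to between 1159 and 1244 CPM in tumor-bearing mice and between 1264 and 1432 CPM in PBS-injected mice, without overlap.

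Around the 10 genes, 91 related genes were listed in 8 groups and 85 could be tested. Of these, 17 fell in the presence of a tumor and 5 rose, beside the 4.61% and 4.12% of all genes, and their median log2 fold change was -0.17. The lower genes numbered 10 without PBS 1-3 or LLC1 1-5 and 11 without LLC1 1-2 or 1-3, and the higher genes 1 without PBS 1-3 and 2 without LLC1 1-2, 1-3 or 2-2 or PBS 2-1. The lists were drawn up with earlier results of these mice known. They are shown in the plot of related genes.

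**Figure D5:**
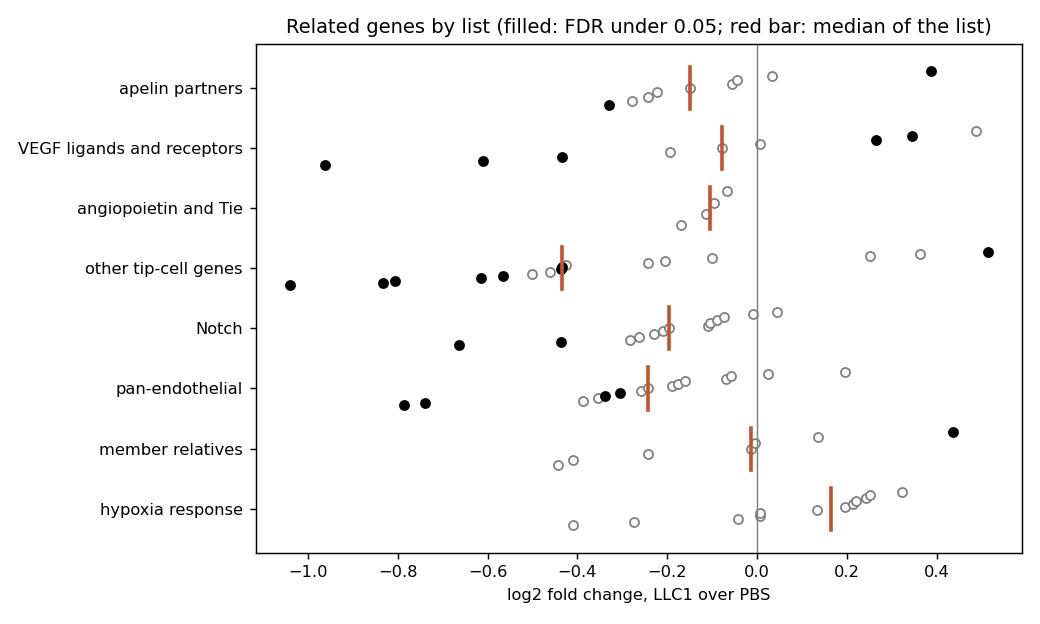
Log2 fold change of tumor-bearing over PBS-injected mice (horizontal axis) for the 85 related genes tested, in 8 lists (vertical axis). Filled points passed edgeR's test (FDR under 0.05), open points did not, and the red bar is the median of the list, from -0.43 for other tip-cell genes to 0.16 for hypoxia response genes.

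VEGF ligands and receptors moved in both directions, with 3 of 9 lower and 2 higher. Kdr (VEGF receptor 2, the main signaling receptor of endothelium) was at 165, 190, 191 and 199.6 CPM in tumor-bearing mice and at 256, 304, 293 and 285 CPM in PBS-injected mice (log2 fold change -0.61 ± 0.08, edgeR FDR = 0.00132). Flt1 (VEGF receptor 1, which binds VEGF-A tightly and signals weakly) was at 166, 177, 139 and 174 CPM in tumor-bearing mice and at 133, 125, 121 and 137 CPM in PBS-injected mice (log2 fold change 0.35 ± 0.08, edgeR FDR = 0.0234, and 0.0719 with total count scaling). The groups were apart for both receptors, in opposite directions. The ratio of Kdr to Flt1 CPM, looked at after these values were seen, was between 0.996 and 1.37 in tumor-bearing mice and between 1.92 and 2.43 in PBS-injected mice. The co-receptors for VEGF and semaphorins also fell. Nrp2 went from 95.6 ± 18.3 to 49.1 ± 4.57 CPM (SD, n = 4, log2 fold change -0.96 ± 0.12, edgeR FDR = 0.00139) and Nrp1 from 230 ± 16.7 to 171 ± 10.4 CPM (SD, n = 4, log2 fold change -0.43 ± 0.07, edgeR FDR = 0.00501). Vegfb, a ligand of Flt1 made by heart muscle, rose (log2 fold change 0.27 ± 0.06, edgeR FDR = 0.0252), while Vegfa had a log2 fold change of -0.19 ± 0.15 that did not pass.

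Of 16 other tip-cell genes tested, 7 fell and 1 rose. Plxnd1, the receptor through which semaphorin 3E repels tip cells, was at 123 ± 12.1 against 183 ± 21.1 CPM (SD, n = 4, log2 fold change -0.57 ± 0.09, edgeR FDR = 0.00513). Trp53i11 had a log2 fold change of -0.83 ± 0.14 (edgeR FDR = 0.00683), Marcksl1, an actin regulator, of -1.04 ± 0.19 (edgeR FDR = 0.00848) and Hlx, a homeobox factor, of -0.81 ± 0.19 (edgeR FDR = 0.0219). The basement membrane nidogens Nid1 and Nid2 had log2 fold changes of -0.44 ± 0.10 and -0.61 ± 0.17 (edgeR FDR = 0.0195 and 0.0461), and the adhesion molecule Mcam of -0.43 ± 0.11 (edgeR FDR = 0.0281). Nid2 did not pass with total count scaling (FDR = 0.0612) or in limma-voom. Igfbp3, which binds insulin-like growth factors, rose (log2 fold change 0.51 ± 0.13, edgeR FDR = 0.0319). Cxcr4 and Pdgfb, a chemokine receptor and a growth factor of tip cells, had log2 fold changes of -0.46 ± 0.20 and -0.42 ± 0.13 that did not pass.

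In the Notch pathway 2 of 13 genes fell and 0 rose. Nrarp, a target and feedback inhibitor of Notch, was at 6.06 ± 1.05 against 9.68 ± 1.29 CPM (SD, n = 4, log2 fold change -0.66 ± 0.15, edgeR FDR = 0.0180), and Heyl, a target gene found in mural cells, at 29.8 ± 3.56 against 40.3 ± 3.82 CPM (SD, n = 4, log2 fold change -0.44 ± 0.10, edgeR FDR = 0.0185). The receptors Notch1 and Notch4 had log2 fold changes of -0.09 ± 0.14 and -0.11 ± 0.17, and the target Hey1 of -0.20 ± 0.12.

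No gene of the angiopoietin and Tie list passed among the 4 tested, by edgeR, DESeq2, the likelihood ratio test or limma-voom, and 0 had an unadjusted p under 0.05 in edgeR. Tek, the receptor of Angpt2, had a log2 fold change of -0.07 ± 0.08, the stabilizing ligand Angpt1 of -0.10 ± 0.13, the orphan receptor Tie1 of -0.17 ± 0.13 and the phosphatase Ptprb, which acts on Tek, of -0.11 ± 0.11. Among 12 genes of the hypoxia response 0 passed in edgeR, 1 in DESeq2, 1 in the likelihood ratio test and 0 in limma-voom, and 5 had an unadjusted p under 0.05 in edgeR. Epas1, the hypoxia-inducible factor of endothelium, had a log2 fold change of 0.20 ± 0.08 and Ldha, lactate dehydrogenase, of 0.13 ± 0.08. Blocking on the leading digit of the replicate codes, 3 of the 12 passed.

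Of the 22 related genes that passed, 10 also passed in each of the 8 fits that left out 1 mouse. These were Kdr, Nrp1, Nrp2, Plxnd1, Trp53i11, Marcksl1, Nrarp, Cldn5, Cd34 and Ntn1. Furin was lost without PBS 1-3. Heyl was lost without LLC1 1-2, 1-3 or 1-5, Hlx without LLC1 1-2 or 1-5 or PBS 1-3, and Emcn without LLC1 1-3 or 2-2 or PBS 1-3. Nid1 was lost without LLC1 1-2, 1-3 or 1-5 or PBS 1-3, and Mcam without LLC1 1-3, 1-5 or 2-2 or PBS 1-3. Flt1 passed in 3 of the 8 fits, being lost without LLC1 1-2, 1-3 or 2-2 or PBS 1-3 or 2-1. The calls of 4 genes held in 2 of the 8 fits and were lost without any other mouse, Gnai3 holding without LLC1 1-3 or PBS 2-1, Vegfb without PBS 1-1 or 2-5, Igfbp3 without LLC1 1-5 or PBS 1-1 and Nid2 without LLC1 2-2 or PBS 1-1. Mmrn2 held in 1 of the 8, without PBS 1-1.

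The genes whose pattern over the 8 mice was nearest to that of Apln were found by the root mean square difference of log2 CPM after each gene was centered on its own mean. Nrep came first at 0.156, followed by Ttyh2 (0.182), Fscn1 (0.200), Rasal3 (0.215) and Col15a1 (0.220), where the median of all genes tested was 0.692. Fscn1 bundles actin and Col15a1 is a collagen of the vascular basement membrane. Aplnr was at 0.291 from Apln, with 36 genes nearer. For Aplnr itself the nearest were Lrrc55 (0.216), Cd109 (0.238), Prdm1 (0.249), Nrep (0.271) and Akap5 (0.277), against a median of 0.877, and only 5 genes were nearer to it than Apln. As the difference between groups fills most of such a pattern, these are descriptions of the same contrast.

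PBS 1-1 was the lowest PBS-injected mouse for 6 of the 10 genes, Apln, Aplnr, Dll4, Angpt2, Unc5b and Prnd. Without it their log2 fold changes were -1.30, -1.77, -0.39, -0.64, -0.65 and -2.33, each farther from 0 than with it. The 3 genes whose groups overlapped depended on single mice. The log2 fold change of Esm1 went from -0.02 to 0.06 without PBS 1-1 and so changed sign, and it was between -0.07 and -0.01 without any other mouse. That of Plvap went from 0.10 to -0.02 without LLC1 1-2, also with a change of sign, to 0.03 without PBS 2-1 and to 0.15 without LLC1 2-2. That of Pgf went from 0.26 to 0.15 without LLC1 1-2 and to 0.43 without PBS 2-5. Within the mice whose replicate code starts with 1 (3 tumor-bearing, 2 PBS-injected) and those whose code starts with 2 (1 and 2) the log2 fold changes were -1.29 and -1.16 for Apln, -1.66 and -1.50 for Aplnr, and -2.25 and -1.89 for Prnd. Vash1 differed more between these subsets, at -1.21 and -0.62. Esm1 (-0.17 and 0.14) and Plvap (0.13 and -0.05) changed sign. The labels do not say what the first number of the code stands for.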

How the data were processed

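RNA of 8 mouse ventricles was sequenced by the authors from TruSeq libraries that do not mark strand, as paired reads on mm10, and the deposited values are raw counts per gene and mouse, with no normalization. The submitters' processing notes list CASAVA, STAR and featureCounts without versions, and the annotation is not given in the sources used here. No row lacked a gene ID. The labels do not say outright that each library is 1 animal, so p-values measure the spread between these libraries. The libraries of a group were checked and were distinct beyond counting noise.

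Counts were analysed with edgeR 4.0.16 in R 4.3.3: filterByExpr, TMM factors, estimateDisp, glmQLFit and glmQLFTest with all 8 mice and no covariate, and Benjamini-Hochberg adjustment over 16111 genes (FDR under 0.05). Standard errors are the absolute log2 fold change over the square root of F. A prior count of 2 was used for log2 CPM. Transcript lengths are those of the deposited table, and annotation overlaps come from GENCODE M21. Promoters were scanned with Python 3.11.15. The steps were tested on simulated data.

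The 10 genes, the lists of related genes and the markers were chosen with earlier results of these data known. The text names the 10 genes, related genes that passed, the 2 most abundant of lists in which none did, the 5 genes nearest to Apln and to Aplnr, and Gm28045; other genes were named after their values were seen. The value of 1 related gene is not reported here, while counts of genes include it. Alternatives were DESeq2 1.42.0, upper-quartile and total count scaling, 2 other count filters, the likelihood ratio test, limma-voom (limma 3.58.1), a block on the replicate code, subsets by that code, and each mouse left out.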

Additional observations from a re-analysis of the deposited data

Results flagged for a closer look

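The highest and lowest mouse of each group were examined for the 10 genes and the related genes that passed the test, 64 groups of 4 mice in all. In 4 of them 1 mouse lay farther from the rest than the critical value of Dixon's test allows, where chance gives about 5% of groups. Unc5b was at 18.5 CPM in LLC1 1-5 and between 21.9 and 22.5 CPM in the other tumor-bearing mice. Vegfb was at 174 CPM in PBS 1-1 and between 152 and 155 CPM in the other PBS-injected mice. LLC1 1-2 was low for a pair of genes, with Hlx at 2.91 CPM (others 4.27 to 4.48) and Nrarp at 4.50 CPM (others 6.39 to 6.74).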

How the results depend on the processing

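No log2 fold change of a related gene that passed changed sign in the alternatives run on it (293 values stayed past the threshold and 59 did not). Scaling to total counts gave 225 higher genes over the whole table in place of 663, 3 higher related genes in place of 5 and 1 called apelin partner in place of 2. In the hypoxia list 1 gene was called by DESeq2, 1 by the likelihood ratio test and 1 when all genes with at least 1 count were tested, and the replicate block on the first number of the code gave 3. With all genes of at least 1 count, 8 markers of dividing cells were called in place of 5, and with at least 10 counts in every mouse 2, since most of these genes then leave the test. Within codes starting with 1 or 2 the log2 fold change was -0.17 or 0.14 for Esm1 and -1.21 or -0.62 for Vash1, and it was -0.74 for Prnd with Gm28045 added. Leaving out 1 mouse gave 542 (without PBS 1-3) to 1949 calls (without PBS 1-1), 330 to 1041 of them lower and 212 to 908 higher. Related genes called were then 10 to 22 lower and 1 to 6 higher, with 0 to 2 apelin partners, 3 to 5 of the VEGF list, 3 to 10 tip-cell genes, 1 to 2 of the Notch list, 2 to 7 pan-endothelial genes, 1 to 2 relatives of the 10 genes and 0 to 1 hypoxia genes. No paired analysis was possible because the groups share only the code 1-3, carried by different mice. Of the 10 genes Esm1 had the fewest counts, 19 to 27 in a library. The cause of the other moves was not tested.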
